A study of Mus musculus with 6 samples.

Results

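The interleukin and TNF superfamily genes were taken from the larger of the study's in situ gene panels as every gene whose symbol begins with Il and a digit, with Tnfsf or with Tnfrsf, or equals Tnf. The rule found 77 genes on this panel, which holds 5006 predesigned and 44 custom genes, and used no measured value. By role, 35 of them encode ligands, 37 encode receptor chains and 5 encode decoy receptors or inhibitors (Il1rn, Il13ra2, Il22ra2, Tnfrsf11b and Il1f5). By name, 58 are interleukin genes and 19 are TNF superfamily genes. Il1b was the only 1 of the 77 among the custom genes that the study added to the commercial panel.

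The study used Xenium imaging, which decodes single RNA molecules (transcripts) in a tissue section and assigns them to segmented cells, to examine erythroid niches in blood-forming organs. This panel was run on the fetal liver of a wild-type C57BL/6 embryo at E13.5 and on the leg bone marrow of a wild-type mouse aged 89 weeks. Each was a single 5 µm section of fixed, paraffin-embedded tissue, and both were imaged in the same run. Neither animal carried a transgene or received a treatment. The marrow had been fixed, cut frozen as 100 µm slices of femur and freed from the bone before embedding, so tissue, age and preparation cannot be told apart in any difference between the sections. A smaller panel of 379 predesigned and 98 custom genes had been run on E14.5 fetal liver, bone marrow at postnatal day 8 (P8), spleen of an untreated adult mouse and spleen of a mouse injected with phenylhydrazine (PHZ), which destroys red cells, at 40 mg per kg, all wild type and 1 section each. The labels do not say how many animals lay behind a section. With 1 section per condition no test of a difference was possible. All intervals below are 95% intervals for counting error only.

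Interleukins and TNF family ligands are secreted or membrane-bound signals, and their receptors are shared in a combinatorial way. Il2rg is the common γ-chain of the receptors for IL-2, IL-4, IL-7, IL-15 and IL-21. Il6st (gp130) carries the signal for IL-6, IL-11 and related cytokines, and Il1rap is the partner chain of several IL-1 family receptors. Decoy receptors such as osteoprotegerin (Tnfrsf11b) bind a ligand without passing on a signal. In marrow, Il7 and Il7r sustain early B lymphopoiesis, Tnfsf11 (RANKL) and Tnfrsf11a (RANK) drive osteoclast formation, and Il34 is a ligand of the Csf1 receptor on macrophages.

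The liver section held 5285 cells and 1384795 gene transcripts, with a median of 190 per cell, and the marrow section held 143810 cells and 13053261 transcripts, with a median of 60. No cell name was shared between the sections. Tissue markers matched the labels, with Afp, the fetal liver α-fetoprotein, at 16107 CPM (its count per 1000000 gene transcripts of the section) in liver and 7.89 CPM in marrow, and with the neutrophil gene Ltf at 117 and 15658 CPM. Background differed between the sections for some kinds of control. Genomic controls, probes against DNA rather than RNA, summed to 24.6 CPM in liver and 74.9 CPM in marrow, a 3.05-fold difference (2.17 to 4.43), and negative control probes were higher in marrow as well (log2 1.56, 0.16 to 3.46). Negative control codewords (0.915-fold, 0.598 to 1.46) and unassigned codewords (0.893-fold, 0.790 to 1.01) had ratios of marrow over liver whose intervals included 1. The highest negative control had 2 transcripts in liver and 18 in marrow, and the highest control of any kind had 8 and 90. In liver 51 of the 77 members exceeded every negative control, against 82.9% of all panel genes, and in marrow 76 of 77 did, against 97.8%. Above every control of any kind were 32 members in liver, against 68.7% of all panel genes, and 56 in marrow, against 70.0%. The 21 members at or below 90 transcripts in marrow, 15 of them ligands, lay within the range of the genomic controls, so their ratios compare a marrow level that was not separated from background.

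Members made up 0.320% of all transcripts in liver (4435 transcripts, 3203 CPM) and 0.670% in marrow (87470 transcripts, 6701 CPM). Receptors dominated both sections. They held 91.7% (90.9 to 92.5) of member transcripts in liver and 81.1% (80.8 to 81.4) in marrow, whereas ligands held 6.11% (5.42 to 6.86) and 14.9% (14.6 to 15.1). Probes differ between genes in number and efficiency, so these shares are over decoded transcripts and not over molecules in the tissue. Ligands together rose from 196 to 997 CPM, a log2 ratio of marrow over liver of 2.35 (2.18 to 2.53). Receptors rose from 2938 to 5434 CPM, a log2 ratio of 0.89 (0.84 to 0.93), and of 1.40 (1.34 to 1.46) once the most abundant of them, Tnfrsf14, was left out. Decoys and inhibitors went from 68.6 to 270 CPM (log2 1.98, 1.68 to 2.29). Scaled per cell instead of per transcript, the receptor ratio turned to -0.64, since a marrow cell held fewer transcripts. Over whole sections, fewer cells of a type and less RNA per cell cannot be told apart.

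**Figure D1:**
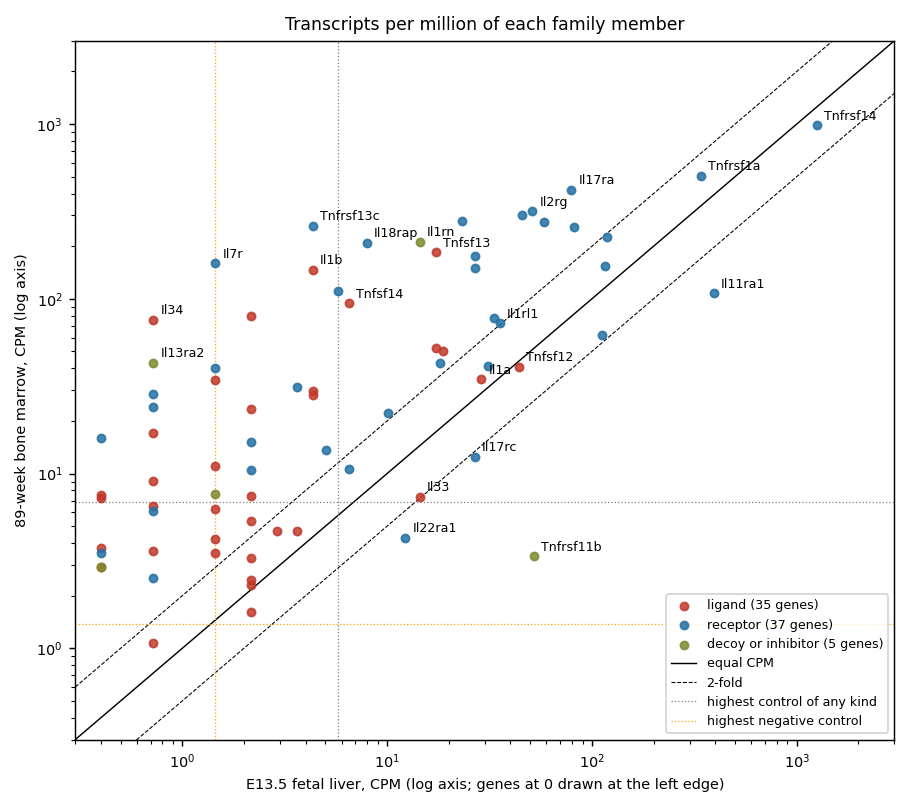
CPM of each member in the E13.5 fetal liver (x axis) and the 89-week bone marrow (y axis), both on log axes, coloured by role, with genes at 0 in liver drawn at the left edge. Dotted lines give the highest negative control and the highest control of any kind in each section. Most points lie above the line of equal CPM, Tnfrsf14 lies close to it, and Il11ra1, Il17rc, Il22ra1 and Tnfrsf11b lie below the lower dashed line.

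Fold differences were counted at 2-fold or more among members with at least 20 transcripts over both sections, a gene at 0 being set to 3 transcripts. Of 76 such members, 52 were higher in marrow, where 27.3% of all panel genes were, and 4 were higher in liver, where 17.7% of all genes were. Scaled per cell, 30 were higher in marrow, where 9.65% of all genes were, and 15 in liver, where 59.4% were. The median log2 ratio was 1.80 over these members and 0.17 over all genes. By role, 23 of 34 ligands and 26 of 37 receptors were higher in marrow. The genes higher in liver were 3 receptors, Il11ra1, Il17rc and Il22ra1, and the decoy Tnfrsf11b. Counting only members above every control in the section where they were higher left 44 and 4 of 58, where 23.9% and 21.9% of all genes were left. Among the 70 members seen in both sections, the interval of the log2 ratio lay above 0 for 47, where that of 32.1% of all genes did, and below 0 for 7, where that of 35.6% did.

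**Figure D2:**
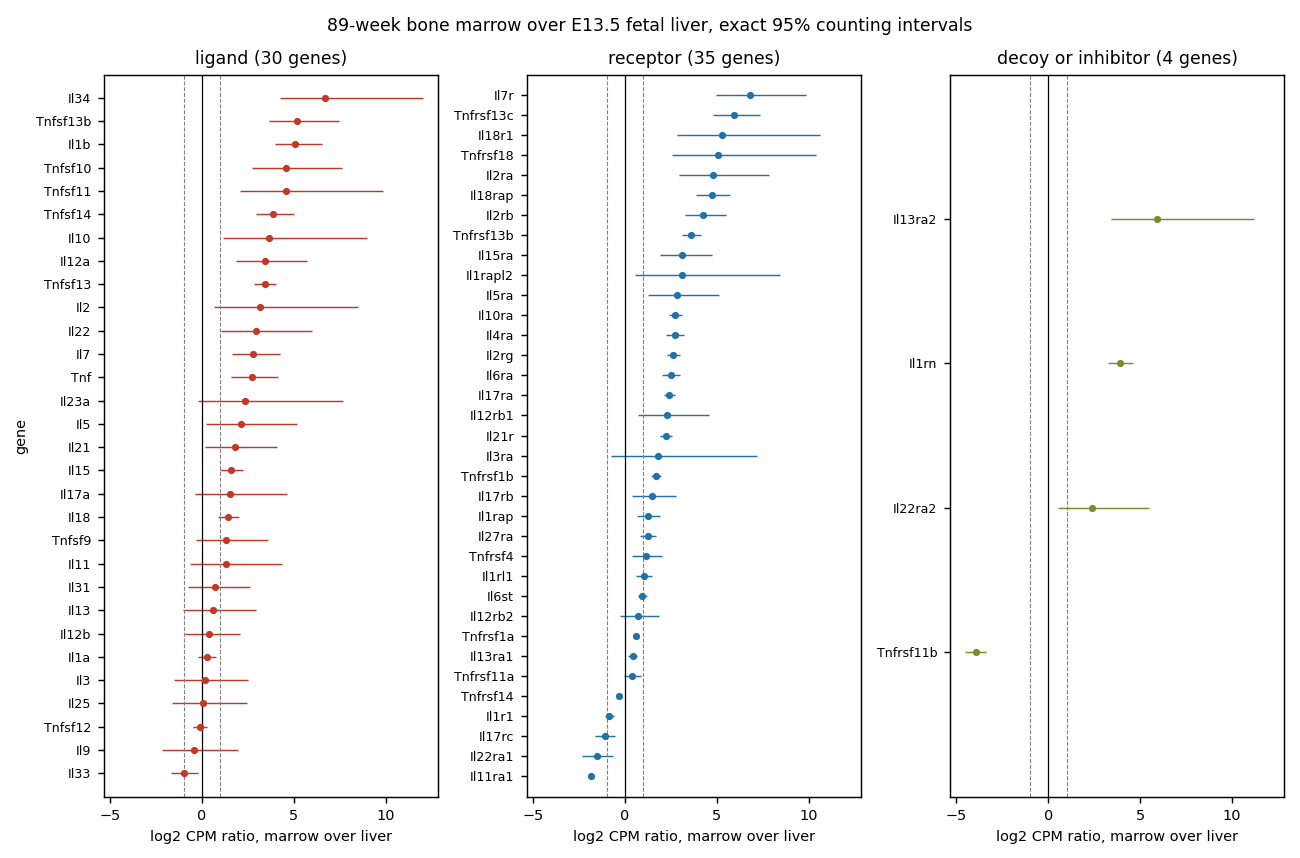
Log2 CPM ratio of 89-week bone marrow over E13.5 fetal liver for members with at least 20 transcripts over both sections and at least 1 in each, ordered within ligands, receptors, and decoys or inhibitors. Bars are exact 95% counting intervals, and dashed lines mark 2-fold. Il34, Il7r, Tnfrsf13c and Il13ra2 stand at the top of their panels, and Tnfrsf11b has the lowest ratio of all at -3.95.

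Tnfrsf14, the receptor for LIGHT (Tnfsf14) and BTLA, was the member with the most transcripts in both sections, 1738 in liver and 12841 in marrow. It alone made up 39.2% (37.7 to 40.6) of member transcripts in liver and 14.7% (14.4 to 14.9) in marrow. Its level was 1255 CPM in liver and 984 CPM in marrow, 1.28-fold (1.21 to 1.34) higher in liver. Tnfrsf1a, the TNF receptor found on most cells, had 473 and 6627 transcripts (342 and 508 CPM, log2 0.57, 0.44 to 0.71, turning to -0.96 per cell), and Tnfrsf1b, the TNF receptor typical of leukocytes, had 113 and 3364 (81.6 and 258 CPM, log2 1.66, 1.39 to 1.94).

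The windows of 250 bases before the annotated starts of Tnfrsf14 and Il1rl1, the IL-33 receptor ST2, are shown because most transcripts of each gene lay in cells rich in erythroid genes in both sections. The windows come from RefSeq promoters of build GRCm38.p6, where 60 of the 77 members had an entry. Capitals mark matches of a pair of motifs on either strand. The motif bound by erythroid zinc-finger factors of the Gata family was searched as AGATAA. For the myeloid factor PU.1 the letters searched in the same windows were GGAAGT.
Tnfrsf14, chr4:154928078-154928327, minus strand: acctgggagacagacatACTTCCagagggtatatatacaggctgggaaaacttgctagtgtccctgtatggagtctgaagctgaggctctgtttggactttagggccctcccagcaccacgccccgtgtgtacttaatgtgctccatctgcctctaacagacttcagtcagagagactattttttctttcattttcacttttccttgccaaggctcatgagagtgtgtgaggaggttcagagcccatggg
Il1rl1, chr1:40429320-40429569, plus strand: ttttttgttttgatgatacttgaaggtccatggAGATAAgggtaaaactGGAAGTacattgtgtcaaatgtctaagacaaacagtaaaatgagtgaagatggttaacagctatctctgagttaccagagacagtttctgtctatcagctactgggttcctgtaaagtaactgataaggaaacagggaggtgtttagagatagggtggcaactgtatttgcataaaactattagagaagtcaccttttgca
Il1rl1, chr1:40439379-40439628, plus strand: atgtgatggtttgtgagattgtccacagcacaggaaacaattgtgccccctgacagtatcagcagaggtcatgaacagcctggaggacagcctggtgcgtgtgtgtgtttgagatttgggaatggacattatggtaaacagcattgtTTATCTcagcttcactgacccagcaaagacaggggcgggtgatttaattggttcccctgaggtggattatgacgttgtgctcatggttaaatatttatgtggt
The window of Tnfrsf14 held a PU.1 match and no match of the Gata letters. The first window of Il1rl1 held 1 match of each on the forward strand, and the other held 1 Gata match on the reverse strand. No matches overlapped. Over the 75 windows of members, 11 held the Gata letters, against 9.99% of all 32851 windows, and 19 held the PU.1 letters, against 19.7% of all. The palindromic motif of EBF factors, searched in the same way, was in 1 member window, that of Il2rg, and in 0.779% of all. A match of letters is not evidence of a bound site.

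Among receptors seen in both sections, Il7r, Tnfrsf13c, Il18r1, Tnfrsf18, Il2ra, Il18rap and Il2rb had the largest ratios. Il7r, the receptor chain for IL-7, had 2 transcripts in liver and 2094 in marrow, a fold of 111 with an interval of 30.7 to 918. Tnfrsf13c, the BAFF receptor of B cells, had 6 and 3420 transcripts, 60.5-fold (27.7 to 165). Il18r1 had 1 and 370, Tnfrsf18 (GITR) had 1 and 313, Il2ra had 2 and 524, and Il2rb had 8 and 1438 transcripts. These 6 were at or below the highest control of any kind in liver, so their liver level was not separated from background. Tnfrsf9 (4-1BB) was listed at 0 in liver and had 208 transcripts in marrow, at least 7.36-fold higher against a floor of 3 transcripts. Il18rap, the second chain of the IL-18 receptor, was above the controls in both sections, with 11 and 2738 transcripts, and was 26.4-fold (14.7 to 53.0) higher in marrow.

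The remaining receptors seen in both sections had smaller ratios. Il2rg went from 71 to 4145 transcripts, 6.19-fold (4.90 to 7.95) higher in marrow, Il10ra from 63 to 3941, 6.64-fold (5.17 to 8.65), Il17ra from 110 to 5511, 5.31-fold (4.40 to 6.48), and Il4ra from 37 to 2282, 6.54-fold (4.73 to 9.32). Il21r was 4.69-fold (3.76 to 5.92) and Tnfrsf13b (TACI) 12.1-fold (8.54 to 17.7) higher. Il6st was 1.91-fold (1.63 to 2.25), Il27ra 2.35-fold (1.75 to 3.23), Il13ra1 1.33-fold (1.13 to 1.57) and Il1rl1 2.05-fold (1.54 to 2.79) higher in marrow by CPM. Scaled per cell, the direction of these 4 turned, with log2 ratios of -0.60, -0.30, -1.12 and -0.50. For Tnfrsf11a the log2 ratio of 0.40 had an interval that included 0 (-0.05 to 0.89).

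Among receptors higher in liver, Il11ra1, the IL-11 receptor, had 544 transcripts in liver and 1402 in marrow, 393 against 107 CPM, 3.66-fold (3.31 to 4.04) higher in liver. Il1r1, the signalling IL-1 receptor, was 1.81-fold (1.51 to 2.15) higher there, below the 2-fold limit. Il17rc was 2.14-fold (1.46 to 3.07) and Il22ra1, the IL-22 receptor chain of epithelial cells, 2.86-fold (1.56 to 5.00) higher in liver, the latter on 17 and 56 transcripts with the marrow count inside the range of the genomic controls.

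Ligands were sparse in liver. Only 7 of 35 exceeded every control there, and the most abundant, Tnfsf12 (TWEAK), had 61 transcripts. Tnfsf12 was also the ligand with the most even levels among the abundant ones, 44.0 CPM in liver and 40.9 CPM in marrow (log2 -0.11, -0.49 to 0.30). Il1a, the membrane-associated alarm form of IL-1, had 40 and 452 transcripts (28.9 and 34.6 CPM, log2 0.26, -0.21 to 0.77). Il33, an alarm cytokine of stromal and endothelial nuclei, had 20 and 96 transcripts and was 1.96-fold (1.15 to 3.20) higher in liver. In marrow 4 ligands exceeded 1000 transcripts. Of these, Il1b and Tnfsf13b were below the highest control of any kind in liver, so their liver level was not separated from background. Tnfsf13 (APRIL) had 24 transcripts in liver and 2406 in marrow, 10.6-fold (7.13 to 16.6) higher, Il1b had 6 and 1918, 33.9-fold (15.5 to 92.5), Tnfsf14 had 9 and 1233, 14.5-fold (7.63 to 31.9), and Tnfsf13b (BAFF) had 3 and 1034, 36.6-fold (12.5 to 178).

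The ligand with the largest ratio was Il34, with 1 transcript in liver and 991 in marrow (log2 6.72, 4.23 to 12.02). Its liver count was below the highest control of any kind. Tnfsf10 (TRAIL) had 2 and 445 transcripts, Tnfsf11 had 1 and 222, Il10 had 1 and 119, and Il7 had 6 and 386, each at or below the highest control of any kind in liver. Il15 and Il18, above all controls in both sections, were 3.01-fold (2.01 to 4.73) and 2.66-fold (1.80 to 4.11) higher in marrow by CPM, and the log2 ratio of Il18 turned to -0.12 per cell. Tnf itself was low in both, with 6 transcripts in liver and 367 in marrow (4.33 and 28.1 CPM). Il27 and Tnfsf4, listed at 0 in liver, had 98 and 95 transcripts in marrow, just above the highest genomic control.

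Several cytokines of T helper and other activated cells lay within the range of the controls in both sections. In marrow Il2 had 85 transcripts, Il5 82, Il17a 55, Il4 49, Il31 61, Il25 30 and Il9 21, and Il12b had 61, all at or below the 90 of the highest genomic control. In liver none of them had more than 5 transcripts. Il22 and Il21, named after their values were seen, had 145 and 97 transcripts in marrow, above the highest control, and 2 and 3 in liver. Among marrow gates, described below, with enough transcripts to be ranked, the highest was 1.13-fold over the section for Il22 and 0.926-fold for Il21. The marker list leading in positive cells was that of NK cells and ILC for Il22 (2.44-fold) and of T cells for Il21 (4.4-fold). Neither list led after cells were thinned. Whether these marrow counts came from expressing cells was not tested. For Il31, Il25, Il9, Il12b, Il17a and Tnfsf9 the interval of the log2 ratio included 0.

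Decoys and inhibitors differed in direction. Il1rn, the IL-1 receptor antagonist, had 20 transcripts in liver and 2778 in marrow, 14.7-fold (9.52 to 24.2) higher. Il13ra2, the IL-13 decoy, had 1 and 562. Osteoprotegerin (Tnfrsf11b), which captures RANKL, had 72 transcripts in liver and 44 in marrow, 52.0 against 3.37 CPM, 15.4-fold (10.5 to 23.0) higher in liver, with the marrow count inside the range of the genomic controls. Its ligand Tnfsf11 had the opposite order, 0.722 against 17.0 CPM, and the receptor Tnfrsf11a had 31.1 against 41.1 CPM. Most Tnfrsf11b transcripts of the liver section lay in a gate, described below, whose leading genes included tendon and muscle genes.

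Of 60 other genes of these pathways on the panel (further cytokines and receptors, JAK and STAT factors, adaptors and NF-κB genes), 34 were at least 2-fold higher in marrow, where 27.3% of all genes were, and 2 in liver, where 17.7% were. Their median log2 ratio was 1.25, against 0.17 over all genes. Cd40lg, Edar and Ifng, listed at 0 in liver, had 110, 94 and 87 transcripts in marrow, the last below the highest genomic control, and Csf3r, the G-CSF receptor of neutrophils, had 24 and 4585 (log2 4.34, 3.77 to 4.98). At the other end stood Ngfr, the low-affinity neurotrophin receptor, with 182 and 101 transcripts (log2 -4.09), Cish (-1.12, -1.51 to -0.72), Lifr (-0.79, -0.94 to -0.64) and Ltbr (-0.72, -0.999 to -0.425).

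A cell with at least 1 member transcript was counted as positive. In liver 46.9% (45.5 to 48.2) of cells were positive for some member and 4.69% (4.14 to 5.30) for some ligand, and in marrow 37.3% (37.0 to 37.5) and 7.82% (7.69 to 7.96). Positive cells were deeper than the others, with a median of 287 against 131 transcripts in liver and 104 against 43 in marrow. When each cell was thinned to 50 transcripts and shallower cells were left out (419 in liver, 61291 in marrow), the order turned, with 15.7% (14.6 to 16.7) of liver and 28.3% (28.0 to 28.6) of marrow cells positive. Ligand-positive cells were then 0.966% and 4.62%.

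To place the members in lineages, each cell was gated to the marker list, of 17 lists of genes outside the family, that was most enriched in it, provided at least 3 transcripts of at least 2 genes of the list were seen. Such a gate is a range of marker counts and not a cell type. It left 267 liver cells (5.05%) and 47757 marrow cells (33.2%) ungated, the latter with a median of 25 transcripts per cell. The genes of a list define its gate, so their lead in that gate is no independent check of it. Among the 10 leading genes of each gate of at least 50 cells, 4 to 10 came from its own list, apart from 2 gates of the liver section. The hepatic gate had 2 of its markers there, beside other genes such as Gckr, Mlxipl and Onecut1. The 10 leading genes of the stromal gate held none of its markers and included Scx, Myog and Actc1, genes of tendon and muscle, and it is called the stromal-list gate here. Cell outlines touch in these tissues. In liver, C1q macrophage-gated cells carried the erythroid list at 56516 CPM, against 50552 CPM in all other cells, and in marrow at 43361 against 43541 CPM. Part of what a gate holds may therefore belong to neighbours, and how much was not tested. Doublets were not called. The fold of a gate is over all other cells of the section pooled, so a single other gate can be higher.

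A pair of receptors, Tnfrsf14 and Il1rl1, had most of their transcripts in erythroid-gated cells in both tissues. Tnfrsf14 stood at 2295 CPM in the 2007 erythroid-gated liver cells, 2.83-fold (2.57 to 3.11) over all other cells, and at 2430 CPM in the 25569 of marrow, 4.72-fold (4.56 to 4.89). These cells held 54.7% of all Tnfrsf14 transcripts in liver and 60.5% in marrow. A transcript was seen in 32.8% (30.7 to 34.9) of them in liver at a median depth of 146, and in 22.8% (22.2 to 23.3) in marrow at a median depth of 91. Among marrow gates of at least 50 cells the lowest level was 231 CPM in megakaryocyte-gated cells, where 3.75% had a transcript at a median depth of 129. C1q macrophage-gated cells came next to erythroid-gated cells, with 1331 CPM in liver and 1104 CPM in marrow. Il1rl1 was much lower, at 70.0 CPM in erythroid-gated liver cells (29 of its 49 transcripts), 3.40-fold (1.86 to 6.33) over the others, and 187 CPM in marrow, 5.30-fold (4.63 to 6.06). In marrow, mast cell and basophil-gated cells had a similar 174 CPM of Il1rl1 and stem and progenitor-gated cells 140 CPM. When a gate needed 5 list transcripts, the marrow class with the highest Il1rl1 level was that of mast cells and basophils, 2.83-fold over the section. In liver the neutrophil-gated cells reached 91.6 CPM of Il1rl1 on 3 transcripts.

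C1q macrophage-gated cells carried the RANK receptor and IL-18 in both tissues. Tnfrsf11a stood at 240 CPM in the 387 such cells of liver, 18.1-fold (9.43 to 35.5) over other cells, with 26 of its 43 transcripts there, and at 215 CPM in marrow, 7.07-fold (5.84 to 8.53), with 30.0% of its transcripts. Il18 was at 129 CPM in liver (14 transcripts), 13.8-fold (5.91 to 32.6), and at 249 CPM in marrow, 6.56-fold (5.50 to 7.79), with 28.5% of its transcripts. Most marrow transcripts of both genes thus lay outside this gate. In liver the same cells were also higher than the pooled other cells for Il10ra (8.29-fold, 4.82 to 14.1), Tnfrsf1b (6.98-fold, 4.65 to 10.4), Il1a (6.36-fold, 3.07 to 12.6) and Il4ra (4.99-fold, 2.23 to 10.5). In marrow Tnfrsf1b was instead led by monocyte-gated cells, 1021 CPM and 4.77-fold (4.38 to 5.18) over the others. Il6ra, singled out after its values were seen, stood at 157 CPM in C1q macrophage-gated liver cells, against 15.7 CPM in other cells, and was 5.82-fold (5.24 to 6.45) higher in monocyte-gated marrow cells.

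Megakaryocyte-gated cells were higher than other cells for Il21r in both sections, while other members higher in them differed between the sections. In liver they carried Il10ra at 368 CPM, 10.7-fold (5.75 to 19.0) over other cells, and Il21r at 389 CPM, 8.27-fold (4.61 to 14.1), on 17 and 18 transcripts. In marrow the T cell gate was highest for Il21r among gates of at least 50 cells with 20 of its transcripts, 3.01-fold over the section. B cell-gated cells had 760 CPM of it. In Il21r-positive marrow cells the megakaryocyte list was 6.45-fold higher than in other cells, the highest of the list ratios. Megakaryocyte-gated marrow cells had 798 CPM of Il21r, 3.37-fold (3.1 to 3.66) over other cells. Il1a reached 297 CPM there, 19.0-fold (15.7 to 23.0), with 57.7% of all its transcripts in 4725 cells, and Tnfsf14 reached 507 CPM, 7.83-fold (6.96 to 8.81). In liver 0 of the 40 Il1a transcripts lay in the 123 megakaryocyte-gated cells, while 14 lay in C1q macrophage-gated and 12 in endothelial-gated cells. These marrow cells carried the neutrophil list at 11279 CPM, against 53973 CPM in other cells, and the C1q macrophage list at 2407 against 7282 CPM.

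Hepatic-, stromal-list- and endothelial-gated cells of the liver section were higher than other cells for several receptors and for osteoprotegerin. Hepatic-gated cells were higher than the pooled other cells for Il22ra1 (7.30-fold, 2.39 to 26.4, on 12 transcripts), Il17rc (3.21-fold, 1.59 to 6.48) and Il1r1 (228 CPM, 3.08-fold, 2.22 to 4.27). The stromal-list gate carried Il11ra1 at 1251 CPM, 4.76-fold (4.0 to 5.66) over other cells, and Tnfrsf11b at 225 CPM, 8.72-fold (5.34 to 14.4). It held 41.9% of the Il11ra1 and 56.9% of the Tnfrsf11b transcripts. Its leading genes included genes of tendon and muscle, and whether its cells belong to the liver itself was not tested. Their part in the higher levels of both genes in the liver section was not tested either. The 35 mesothelial-gated cells had a similar Il11ra1 level of 1336 CPM on 26 transcripts. Endothelial-gated liver cells were higher than the pooled other cells for Il27ra (7.77-fold, 4.15 to 14.5), Il2rg (4.06-fold, 2.36 to 6.81) and Il6st (3.40-fold, 2.37 to 4.81), and Tnfrsf1a was at 759 CPM in them, 2.60-fold (2.08 to 3.22), beside 795 CPM in C1q macrophage-gated cells. The T cell, NK cell and B cell gates held 1 liver cell each, so the lymphocyte receptors had no lymphocyte-gated population in this section.

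**Figure D3:**
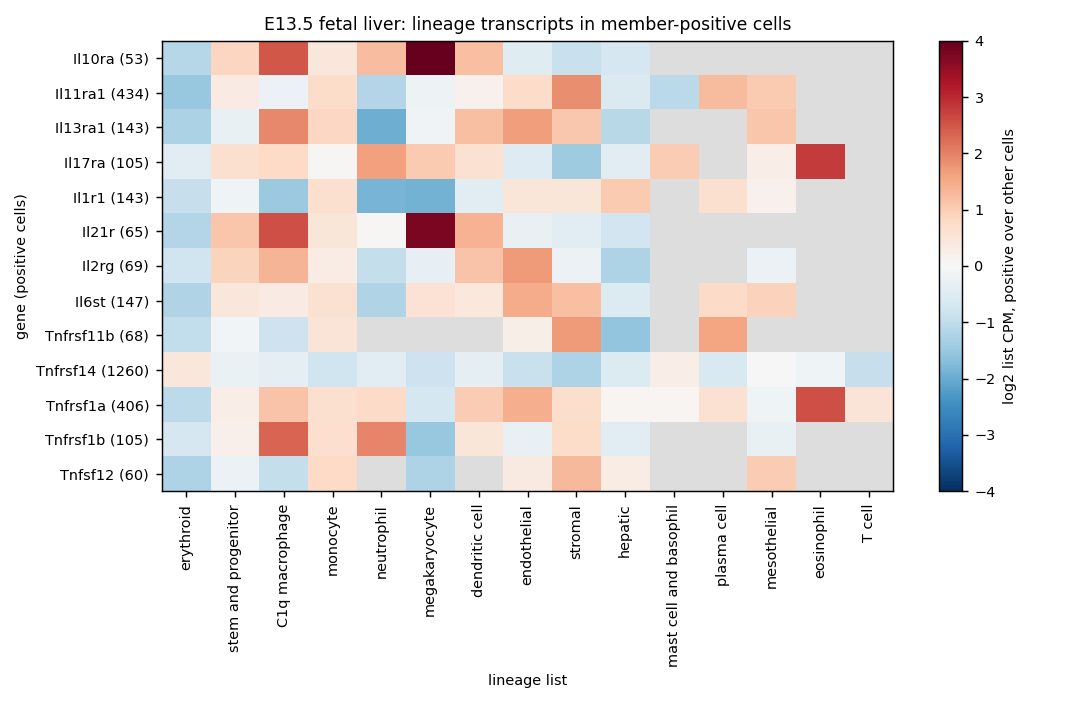
Log2 ratio of lineage-list CPM in cells positive for a member over all other cells of the E13.5 fetal liver, for the 13 members with at least 50 positive cells (rows, number of positive cells in brackets) and the marker lists (columns). Grey marks fewer than 20 list transcripts in the positive cells. Il10ra and Il21r stand out with the megakaryocyte list, Tnfrsf1b with the C1q macrophage list, and Il17ra and Tnfrsf1a with the eosinophil list.

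Taking the positive cells of each member and reading the lineage genes detected with it gave a second description of the liver. With each cell thinned to 50 transcripts and the lists read as shares of cells with a list transcript, the leading list was the same for 6 of the 13 members, and with 2 transcripts required for a positive cell for 1 of 3. The megakaryocyte list was 17.2-fold higher in the 53 Il10ra-positive cells and 13.5-fold higher in the 65 Il21r-positive cells than in other cells, with the integrin gene Itgb3 35.0-fold and 21.1-fold higher. After thinning, the megakaryocyte list was seen in fewer than 20 positive cells of either gene and was not ranked, and the C1q macrophage list led, with log2 ratios of these shares of 1.64 and 1.55. Tnfrsf1b-positive cells had C1qc, C1qb and C1qa 7.31-, 6.6- and 6.31-fold higher. Il11ra1-positive cells had Aldh1a2, a retinoic acid synthase, 18.4-fold and the fibrillar collagen partner Col12a1 16.6-fold higher. Il1r1-positive cells had the hepatocyte gene Mlxipl 5.17-fold higher, and Tnfrsf11b-positive cells had Actg2 8.26-fold higher. The eosinophil list led for Il17ra and Tnfrsf1a, but Epx, the eosinophil peroxidase behind it, was seen in 0.952% of the 105 Il17ra-positive cells, which is 1 cell, and in 1.72% of the 406 Tnfrsf1a-positive cells. For the 1260 Tnfrsf14-positive cells the erythroid list was 1.36-fold higher, and the leading single genes were Hesx1 (2.52-fold) and Tac2 (2.39-fold).

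In marrow the NK and T cell gates had the highest member level, 16235 CPM in 349 NK cell and ILC-gated cells and 14043 CPM in 1041 T cell-gated cells, against 6701 CPM in the whole section. Il2rb, the β-chain shared by the IL-2 and IL-15 receptors, was at 3745 CPM in the NK gate, 39.4-fold (33.8 to 45.8) over other cells, and at 1704 CPM in the T gate, 18.4-fold (16.0 to 21.1). A transcript of Il2rb was seen in 38.7% of NK-gated cells at a median depth of 141, against 0.422% of erythroid-gated cells at a median depth of 91. Il2rg was 5.93-fold (4.81 to 7.23), Il18rap 6.85-fold (5.38 to 8.60) and Tnfrsf9 32.8-fold (20.7 to 49.9) higher in the NK gate. The T gate was higher than the pooled other cells for Il27ra (13.1-fold, 10.8 to 15.8), Tnfrsf18 (10.7-fold, 7.23 to 15.4) and Tnfrsf4 (10.5-fold, 6.96 to 15.4), while 17 Tnfrsf18 transcripts gave 314 CPM in the NK gate, against 232 CPM in the T gate. When a gate needed 5 list transcripts, the T gate no longer led for Tnfrsf18 and Tnfrsf4 nor the NK gate for Tnfrsf9, since a class was ranked only with 20 transcripts of the gene. Ungated cells held 30.2% of the Il2rb transcripts and carried the T cell list at 1719 CPM, against 911 CPM in gated cells.

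B cell-gated cells carried the receptors of B cell survival and growth. Tnfrsf13c was at 1437 CPM in 8520 cells, 9.46-fold (8.84 to 10.1) over other cells, Il2ra was 6.02-fold (5.01 to 7.22), Il7r 4.09-fold (3.71 to 4.5), Tnfrsf13b 3.9-fold (3.62 to 4.20) and Il21r 3.33-fold (3.08 to 3.59) higher. Il7r, which T cells also use, was 7.32-fold (6.18 to 8.62) higher in T cell-gated cells. Dendritic cell-gated cells had Il7r at 607 CPM, against 519 CPM in B cell-gated cells. They had Tnfrsf13b at 691 CPM, 2.53-fold (2.10 to 3.02) over other cells. In plasma cell-gated cells Tnfrsf13b was 3.65-fold (3.20 to 4.15) and Il13ra1 3.89-fold (3.27 to 4.61) higher. Of the ligands, Tnfsf13b was led by neutrophil-gated cells, 211 CPM and 4.57-fold (4.04 to 5.18) over others, with 53.6% of its transcripts in them. Tnfsf13 was led by monocyte-gated cells (520 CPM, 3.15-fold, 2.81 to 3.52), and Il7 by stromal-gated cells (166 CPM, 7.48-fold, 5.95 to 9.36).

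**Figure D4:**
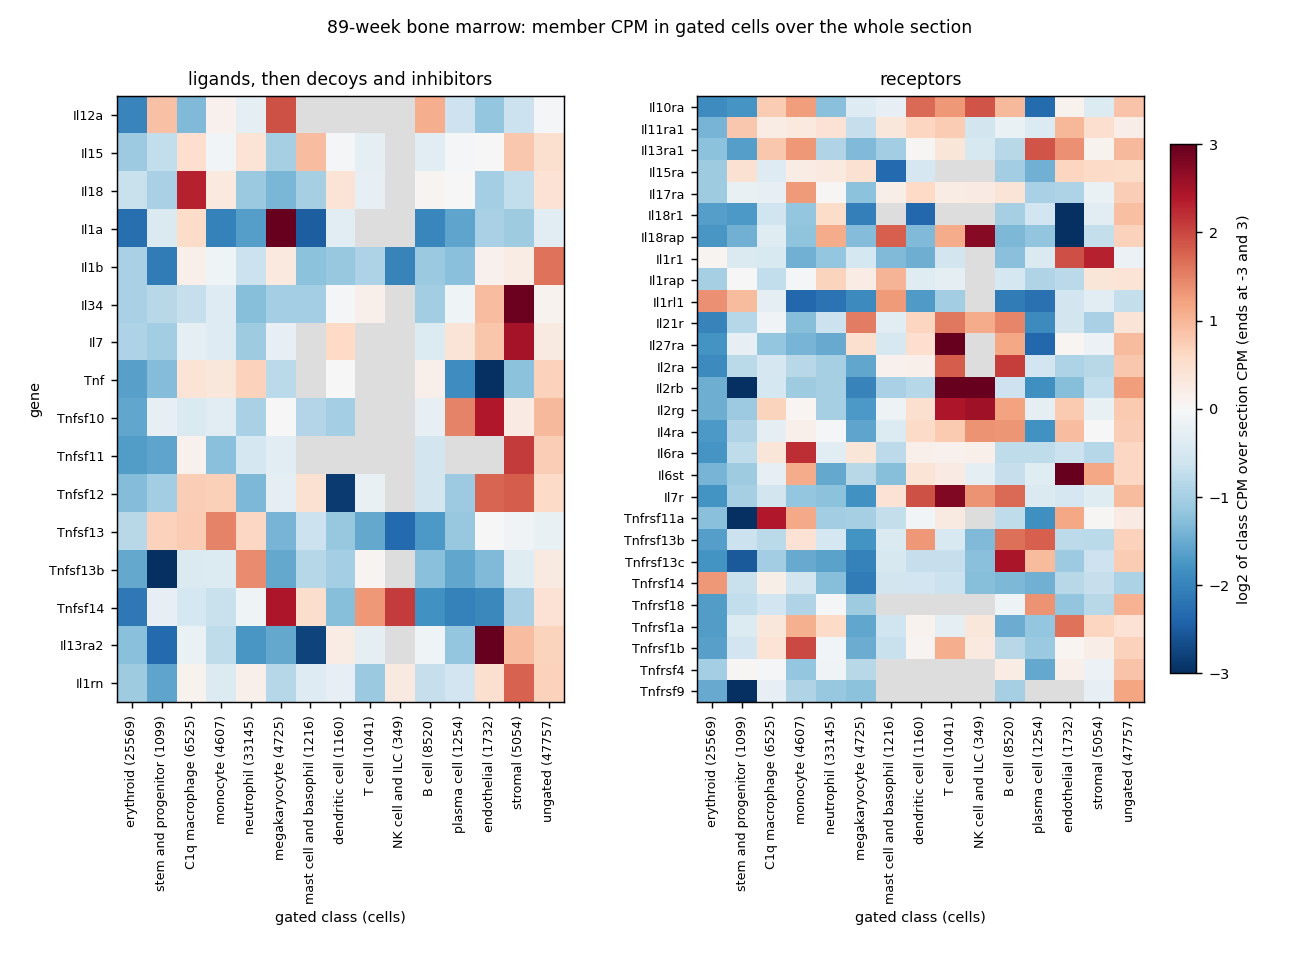
Log2 of member CPM in each gated class of the 89-week bone marrow over the CPM of the whole section, for members with at least 200 transcripts, ligands with decoys or inhibitors on the left and receptors on the right. Numbers in brackets are cells, colours end at -3 and 3, and grey marks fewer than 5 transcripts expected at the section level. Il34 and Il7 are highest in the stromal column, Il1a and Tnfsf14 in the megakaryocyte column, and Il2rb in the T and NK columns.

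Among marrow gates of at least 50 cells, stromal-gated cells had the highest ligand level, 1726 CPM in 5054 cells. Il34 stood at 584 CPM in them, 12-fold (10.6 to 13.7) over other cells, with 39.4% of its transcripts, and Tnfsf11 at 73.3 CPM, 5.25-fold (3.74 to 7.25), while 16 Tnfsf11 transcripts in T cell-gated cells gave 113 CPM there. Il1r1 was 6.33-fold (5.38 to 7.43), Il17rc 7.97-fold (5.58 to 11.2) and Il1rn 3.88-fold (3.51 to 4.28) higher. Endothelial-gated cells carried Il13ra2 at 615 CPM, 20.3-fold (16.9 to 24.3), and Il6st at 2080 CPM, 11.3-fold (10.3 to 12.3). They also carried Tnfsf10 5.81-fold (4.25 to 7.79) and Tnfrsf1a 3.26-fold (2.96 to 3.59) higher than other cells. In neutrophil-gated cells Il18rap was the only receptor with at least 20 transcripts that was 2-fold or more above other cells (457 CPM, 3.1-fold, 2.87 to 3.34), and NK-gated cells carried it at 1402 CPM.

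Il1b did not follow a gate. Ungated cells held 39.5% of its 1918 transcripts, 456 CPM and 4.47-fold (4.08 to 4.91) over gated cells, and the gated class with the highest level was the megakaryocyte gate at 179 CPM. Neutrophil-gated cells had 93.9 CPM. The 1619 Il1b-positive cells had Nlrp12 5.4-fold, Cd300ld 5.34-fold and Csf3r 4.74-fold higher than other cells, genes known from mature myeloid cells, and the megakaryocyte list led at 2.65-fold. With 2 transcripts required for a positive cell, the endothelial list led instead, with a log2 ratio of 1.04 against 0.42 for the megakaryocyte list. The ungated cells carried the neutrophil list at 17478 CPM, against 55992 CPM in gated cells. The leading genes of the neutrophil gate included the granule genes Elane, Mpo, Prtn3 and Ctsg. Csf3r, also on the neutrophil list, was not among them. Whether the ungated Il1b-positive cells were neutrophils that the gate missed was not tested.

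Co-detected genes could be read for 64 members in marrow, and the leading list was at least 2-fold higher in positive cells for 56 of them. Of the panel genes outside the family and the lists with as many positive cells, 52.8% reached 2-fold. The leading list is the highest of up to 17 ratios per gene. Il1a-positive and Tnfsf14-positive cells shared their leading genes, Ly6g6d (30.3- and 30.6-fold), Slc6a4 (18.1- and 19.0-fold) and Cxcl5 (18.7- and 15.5-fold), beside the megakaryocyte list at 13.7- and 12.3-fold. Il2rb-positive cells had Ncr1 39.9-fold and Gzma 34.5-fold higher, both genes of NK cells. Il2ra-positive cells had the recombinase gene Rag1 15.0-fold higher, seen in 24.4% of them and in 1.5% of other cells, and Il7r-positive cells had the pre-B cell receptor gene Igll1 8.12-fold higher. Tnfrsf13c-positive cells had Ms4a1 (CD20) 7.55-fold higher.

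Cells positive for Il34, Il7 or the inhibitor Il1rn shared Ebf3, a transcription factor of marrow stromal cells, which was 11.5-fold higher with Il34, 8.76-fold with Il7 and 4.6-fold with Il1rn. Tnfsf11-positive cells had the matrix protease Mmp13 14.5-fold higher. Tnfrsf11a-positive cells had Ctsk, the osteoclast cathepsin, 38.0-fold higher, although it was seen in 2.78% of 504 cells, and the macrophage genes Siglec1 and Mertk 7.26- and 7.22-fold higher. Il18-positive cells had Mertk 8.51-fold and Cd163 6.96-fold higher. Il13ra2-positive cells had Sele 15.0-fold and Clec14a 14.3-fold higher, and Il6st-positive cells 9.59- and 9.67-fold, both endothelial genes. Il1rl1- and Tnfrsf14-positive cells shared Atp7b (5.32- and 3.66-fold) and Slc30a10 (5.08- and 3.46-fold), a copper and a manganese transporter. Tnfsf13-positive cells had the granule genes Ctsg, Elane and Mpo 3.06-, 3.05- and 2.98-fold higher, and Tnfsf13b-positive cells Chil3 and Ltf 3.45-fold each.

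Some leading genes rested on very few cells. For Il12b, Mcpt8 was 17.1-fold higher but was seen in 3.70% of 54 positive cells, and for Il33, Prss34 was 5.39-fold higher in 3.19% of 94 cells. With 2 transcripts required for a positive cell, 22 marrow members still had 50 such cells and 16 of these had the same leading list. With each cell thinned to 50 transcripts the leading list was the same for 36 of 60.

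Ligand-positive cells were compared with all cells for the share of receptor-positive cells within 40 µm, over the 19 ligand and receptor pairs in marrow with at least 50 positive cells of each. In liver no pair had enough cells. The ratio was above 1 for 12 pairs and ranged from 0.621 for Tnfsf9 and Tnfrsf9 to 1.32 for Tnfsf11 and Tnfrsf11a. The same count was not made for other pairs of genes, so it has no baseline, and the ratios have no intervals. Of 26931 pairs of a Tnfsf11-positive cell and a neighbour, 0.427% (115 pairs) had a Tnfrsf11a-positive neighbour, against 0.323% around any cell. A neighbour of several ligand-positive cells was counted with each of them. For Tnf the ratio was 1.11 with Tnfrsf1a and 1.16 with Tnfrsf1b, for Il1a with Il1r1 1.18, for Il15 with Il2rb 1.12, for Tnfsf14 with Tnfrsf14 1.05, for Il7 with Il7r 0.922 and for Tnfsf13b with Tnfrsf13c 0.995. The neighbours of ligand-positive cells held 87.1 to 95.7 transcripts on average, against 86.0 around any cell, and the part of this depth in the ratios was not tested. At 20 µm, 2 of the 19 ratios changed side of 1.

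Of the 77 members, 7 were also on the smaller panel, Il10, Il18, Il1b, Il2ra, Il4, Il4ra and Tnfrsf18, and for these CPM was taken over the 233 genes that both panels share. The panels differ in probes, run and segmentation, so ratios were taken within a panel only and stand side by side. Il1b was 6.68-fold (6.23 to 7.17) higher in P8 marrow than in E14.5 liver, and 25.6-fold (11.7 to 69.9) higher in 89-week marrow than in E13.5 liver. Il2ra was 4.39-fold (3.97 to 4.86) and 21.0-fold (5.78 to 174) higher, Tnfrsf18 2.12-fold (1.88 to 2.39) and 25.1-fold (4.47 to 994), and Il4ra 1.59-fold (1.52 to 1.66) and 4.94-fold (3.57 to 7.04). Il18 was 1.59-fold (1.53 to 1.65) and 2.01-fold (1.36 to 3.1) higher, and Il10 1.34-fold (1.11 to 1.61) and 9.54-fold (1.68 to 380). Il4 was even between P8 marrow and E14.5 liver, with 497 and 1389 transcripts and a ratio of 1.04 (0.937 to 1.15). In E13.5 liver Il10, Il2ra, Il4 and Tnfrsf18 did not exceed the negative controls. Of the 7, 3 were at least 2-fold higher in P8 marrow, where 31.8% of shared genes were, and 6 in 89-week marrow, where 40.5% were.

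**Figure D5:**
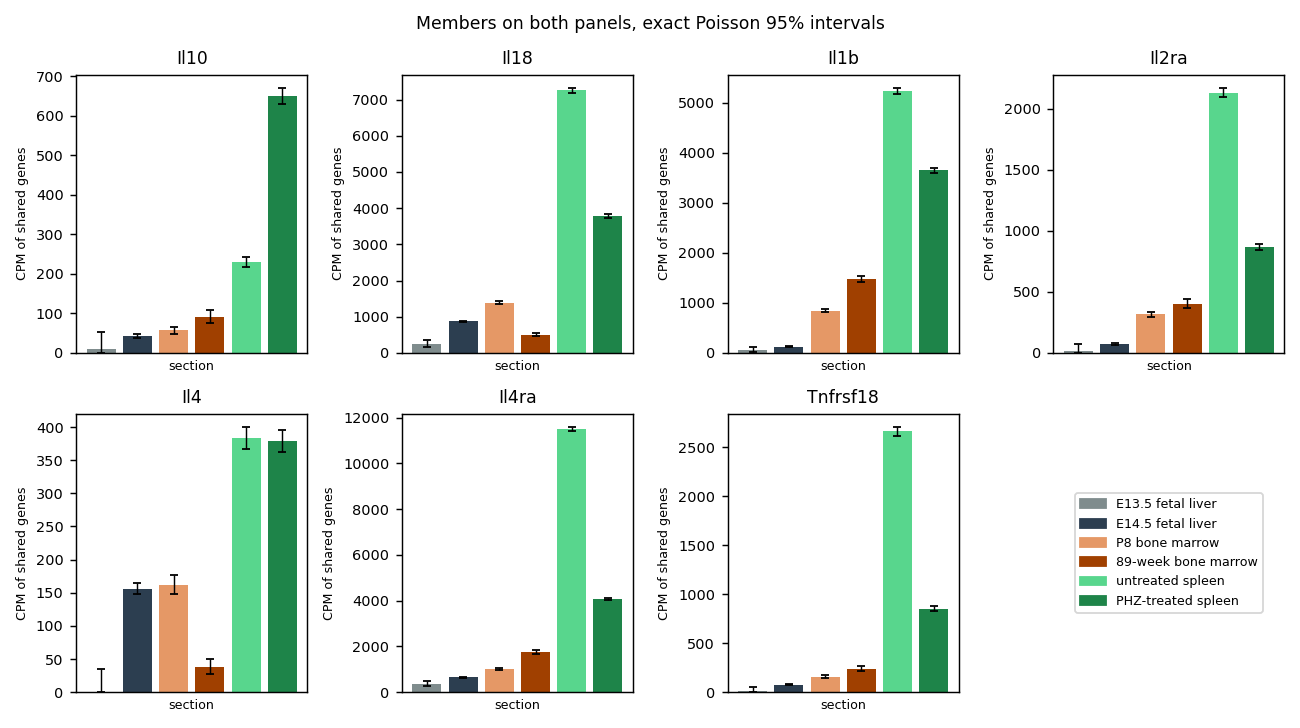
CPM over the 233 genes shared by both panels, for the 7 members on both, in all 6 sections, with exact Poisson 95% intervals. Bars start at 0 and each panel of the plot has its own scale. Among the 4 sections of the smaller panel, the untreated spleen is highest for Il18, Il1b, Il2ra, Il4ra and Tnfrsf18, the PHZ-treated spleen is highest for Il10, and both spleens are close for Il4.

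In the PHZ-treated spleen Il10, an anti-inflammatory cytokine, was 2.82-fold (2.64 to 3.01) higher than in the untreated spleen, with 3662 against 1261 transcripts. Tnfrsf18, Il4ra and Il2ra were lower. Tnfrsf18 went from 2664 to 855 CPM of shared genes, Il4ra from 11500 to 4081, and Il2ra from 2134 to 867, ratios of 0.321, 0.355 and 0.406. Over the same sections the T cell list, of which this panel held 6 genes, went from 28168 to 5883 CPM of genes outside the family, and the erythroid list, of 13 genes, from 40129 to 289637 CPM. The part of these shifts in the members' ratios was not tested. Il18 fell to 0.522 and Il1b to 0.697 of the untreated level, and Il4 stayed at 0.988 (0.93 to 1.05). Of shared genes 29.6% were at least 2-fold lower and 15.0% higher, and of the 7 members 3 and 1.

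The genes detected with these members were read in the same sections. Il4-positive cells had Cpa3, a mast cell and basophil protease, 17.3-fold higher in E14.5 liver and 13.1-fold in P8 marrow. In untreated spleen it was 16.5-fold and in PHZ-treated spleen 4.34-fold higher. Cyp11a1, a steroid-synthesis gene also found in such cells, was 43.0-, 19.7-, 17.3- and 7.54-fold higher in the same order. In PHZ-treated spleen these were 123 Cpa3 and 66 Cyp11a1 transcripts in 1935 positive cells. Kit (4.49-fold, 2553 transcripts) and Podxl (3.28-fold, 5391 transcripts) were also among the leading genes there. Il1b-positive cells had the megakaryocyte list, of which this panel held 3 genes, 7.11-fold higher in E14.5 liver and 4.36-fold in P8 marrow, and the neutrophil list 4.67-fold higher in untreated and 3.32-fold in PHZ-treated spleen. Il18-positive cells had the C1q macrophage list 3.26-, 2.53-, 2.09- and 2.42-fold higher in the 4 sections. In E14.5 liver their leading single genes were instead Upk1b, Upk3b, Krt19, Epcam and Lrp2, 14.7-, 12.8-, 12.2-, 11.6- and 11.2-fold higher. All of these but Epcam belong to the mesothelial list. Il2ra-positive cells had Foxp3, the regulatory T cell factor, 9.86-fold higher in untreated and 25.4-fold in PHZ-treated spleen, and Tnfrsf18-positive cells 4.12- and 16.0-fold.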

How the data were processed

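Counts were analysed of the 77 interleukin and TNF superfamily genes in 2 sections of a 5050-gene Xenium panel (5006 predesigned and 44 custom genes), and of 7 of them in 4 sections of a 477-gene panel. The deposited values are raw counts, a gene-by-cell matrix for every section, together with where each cell lies. Per the file headers these came from Xenium Onboard Analysis 3.1.0.4 (5050 genes) and 1.7.1.0 (477 genes), whereas the paper names Space Ranger. A stain guided segmentation of 98.8% of liver and 98.5% of marrow cells with 5050 genes. No alignment is involved, counts are not normalized, and transcripts outside cells are not counted. Sections were grouped by their labels, 1 per group.

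All segmented cells were used. CPM is counts over all gene counts of a section or cell set. Intervals are exact Poisson, exact (Clopper-Pearson) binomial, and exact conditional binomial for ratios, at 95%, and cover counting error only. A floor of 3 transcripts stood for 0. Cells were gated, and co-detection was read at 50 or more positive cells and 20 or more list or gene transcripts, against all other cells. Members entered neither gates nor lists. Thinning used seed 7. Python 3.11.15, numpy 2.4.6, scipy 1.17.1, pandas 2.3.3 and matplotlib 3.10.9 were used, and the interval and gating functions were tested on simulated data.

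Members named with values were, per section, the 12 ligands and the 12 receptors or decoys with most transcripts, the 10 largest and 10 smallest ratios at 20 or more transcripts, pairs with 50 positive cells of each gene, and members on both panels (57 of 77). For pathway genes the 4 largest and 4 smallest ratios were named. The members and lists were chosen with earlier results of these data known. The role of Il1f5 was corrected to inhibitor after the files had been seen. Co-detection on the 477-gene panel and the 2-fold counts among members above every control were added after seeing the data. Alternatives were other scalings, cell and transcript minimums, folds, gates, thinning and radius.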

Additional observations from a re-analysis of the deposited data

Results flagged for a closer look

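Il1r2, the decoy receptor for IL-1, belongs to the same family but is on the smaller panel only, so no comparison above used it. Its signal was far above the negative controls of all 4 sections of that panel. It had 938 transcripts in the E14.5 fetal liver (44.8 CPM of all genes, 41.9 to 47.7), where the highest negative control had 174, and 1397 in the P8 bone marrow (217 CPM, 205 to 228), where it had 40. It had 4810 transcripts in the untreated spleen (465 CPM, 452 to 478) and 21373 in the PHZ-treated spleen (1870 CPM, 1845 to 1895), with highest negative controls of 77 and 76. A transcript was seen in 3.16% of cells of the untreated and in 11.6% of the PHZ-treated spleen. In all 4 sections the list most enriched in its positive cells was that of neutrophils, 4.38-, 2.94-, 5.13- and 8.36-fold in the order above. These are single sections and the difference was not tested.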

How the results depend on the processing

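Results were recomputed under other settings, and 27 of 42 values of the main comparisons moved by less than their counting error or, for counts, by less than 1.5 times. Counting transcripts per cell instead of CPM shifts each log2 ratio of marrow over liver by -1.53. The ligand ratio then became 0.82 and the receptor ratio -0.64, a reversal, 30 members were at least 2-fold higher in marrow (9.65% of all genes) and 15 in liver (59.4%), and the ratios of Il13ra1 (-1.12), Il18 (-0.12), Il1rl1 (-0.50), Il27ra (-0.30), Il6st (-0.60), Tnfrsf1a (-0.96) and Tnfrsf4 (-0.40) reversed. At 3-fold, 2 members were higher in liver, and the share over all panel genes was not computed at that limit. Without Tnfrsf14 and the most abundant ligand of each section (Tnfsf12 and Tnfsf13), the receptor ratio was 1.40 and the receptor share in liver 89.2%. With decoys counted as receptors the share was 93.4% in liver and 81.9% in marrow, and over cells with at least 20 transcripts it was 81.4% in marrow. Against all controls 32 liver members stood above background. After thinning, 15.7% of liver and 28.3% of marrow cells were positive for a member. With 2 transcripts per positive cell, only 3 liver and 22 marrow members had 50 such cells. Of these, 3 and 21 had a leading list at 2-fold or more, and the share over other panel genes was not computed at that setting. Of co-detection ratios 44 of 53 moved beyond counting error after thinning, which reads shares of cells, and 20 of 23 at 2 transcripts. Of ratios of members on both panels 12 of 20 moved with totals over all genes. At 20 µm 8 of 19 neighbour ratios moved, and the log2 neighbour ratios of Il33 with Il1rl1 (0.27) and of Tnfsf4 with Tnfrsf4 (0.24) reversed. Leaving out shallow cells or the 10 most abundant genes moved none of 53 member ratios beyond counting error. No paired analysis was possible because each group was 1 section. Gates at 5 transcripts kept the highest class of 15 of 16 liver and 45 of 54 marrow members, and gates at 3 genes of 15 and 50. Low counts limit both sections, since 45 of 77 members in liver and 21 in marrow had no more transcripts than the highest control.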
